A study of Homo sapiens with 4 samples.

Results

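The 36 genes described here encode the enzymes that make, desaturate, elongate, activate, store and oxidise fatty acids, together with the transcription factor gene SREBF1. They were listed by function and taken by gene symbol from transcript estimates summed over GENCODE 29. All 36 were found among the 56865 genes summed, and all 36 passed the filter on low counts that left 19358 genes to test. The libraries came from MDA-MB-468 (written MDA-MD-468 in the cell line label), a human breast cancer line that the labels class as triple negative. Cells at passage 12 were treated with DMSO, the vehicle (2 libraries), or with MS1943 at 5 µM for 3 days (2 libraries), and no time is stated for DMSO. The series title names MS1943 as a degrader of EZH2, the methyltransferase of Polycomb repressive complex PRC2, and the libraries ask how it alters the transcriptome. A single line was studied, dishes were seeded in duplicate, and no label says whether the duplicates were independent cultures. The titles carry 1 letter for each DMSO library and 3 for each MS1943 library, and their meaning is not stated. The p-values therefore measure the spread between these libraries, which may be technical.

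Fatty acids are built in the cytosol from acetyl-CoA, which ACLY makes from citrate and ACSS2 from acetate. ACACA and ACACB carboxylate it to malonyl-CoA, FASN assembles palmitate, and desaturases and elongases then diversify the chain. SREBF1 encodes SREBP-1, a membrane-bound factor released by proteolysis that activates many of these genes. Acyl-CoA synthetases prime fatty acids either for esterification into triglyceride, which is kept in lipid droplets coated by perilipins, or for entry into mitochondria through CPT1A and CPT2 and stepwise oxidation there. Malonyl-CoA inhibits CPT1, which couples the routes in opposite directions. High FASN and SCD expression is a known feature of many carcinomas.

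Reads assigned to genes numbered 47334578 to 71024639 per library. Mitochondrially encoded genes took 1.65% and 1.78% of them with DMSO and 3.52% and 3.11% with MS1943. All 6 epithelial markers checked, EPCAM and KRT8 among them, were expressed, and their summed abundance was 6794 and 6833 TPM (a transcript abundance that allows for length) with DMSO and 5296 and 5326 TPM with MS1943. All 5 adipocyte markers, ADIPOQ and PLIN1 included, stayed below 1 TPM in every library and summed to 1.07 to 1.57 TPM. The hepatocyte and endothelial markers summed to at most 1.07 TPM. Of 4 leukocyte markers, CD14 alone exceeded 1 TPM, and of 4 fibroblast markers, COL1A1 alone did. Summed leukocyte markers went from 187 and 189 TPM to 96.0 and 103 TPM and fibroblast markers from 12.6 and 10.4 TPM to 17.8 and 15.3 TPM. The 7 basal markers, keratins such as KRT5 and KRT6A with EGFR, summed to 2296 and 2457 TPM with DMSO and 7140.2 and 6448 TPM with MS1943. KRT14, part of that sum, did not share the rise (245 and 247 TPM with DMSO, 234 and 221 TPM with MS1943). The 4 luminal markers summed to 55.8 to 67.0 TPM, with PGR listed at 0 reads. The part of these marker and mitochondrial differences in the results below was not tested. Scaling by total reads instead of TMM moved the median change over tested genes from -0.01 to -0.12 (log2) and the calls from 5799 higher and 5689 lower to 4619 higher and 6973 lower, so directions below are relative to TMM scaling.

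After MS1943 the lipid genes split within nearly every step of the pathway. Tested genes at large also split, with 30.0% called higher and 29.4% lower. SREBF1, ACLY, FASN, ACACB and most of the listed desaturases were lower, while SCD, ACSS2 and ACACA were higher. The droplet coat gene PLIN2 and the phosphatidate phosphatase genes LPIN1 and LPIN2 rose, and both diacylglycerol acyltransferase genes fell. Among the oxidation genes, ACADVL rose 2.25-fold and CPT1A, the entry step, stood at 146 ± 2.99 CPM with DMSO and 148 ± 0.499 CPM with MS1943 (mean ± SD, n = 2; CPM are read counts scaled to library size with TMM factors). In bulk libraries a change in every cell cannot be told apart from a change in the number of cells that express a gene.

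With edgeR's quasi-likelihood F test, adjusted by Benjamini-Hochberg over 19358 genes, 13 members rose, 16 fell and 7 did not pass an adjusted p of 0.05. Of all tested genes, 30.0% were called higher and 29.4% lower, 59.3% in all, against 80.6% of the members. Counts given below for each role and list are to be read beside those shares of all tested genes. The members are more abundant than most genes, with a median average log2 CPM of 6.21 against 3.56. Among tested genes whose mean log2 CPM reached 2, 74.1% were called, and of the 33 members above that level 28 were called. With at least a 2-fold change, 3 members (8.33%) passed, FADS3, ELOVL3 and ACADVL. The share was 15.9% of all tested genes and 10.4% of those whose mean log2 CPM reached 2, a level that ELOVL3 did not reach. The median absolute log2 fold change was 0.44 for members and 0.41 for all genes. CPM values of the groups did not overlap for 31 members (86.1%), against 78.3% of all tested genes.

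**Figure D1:**
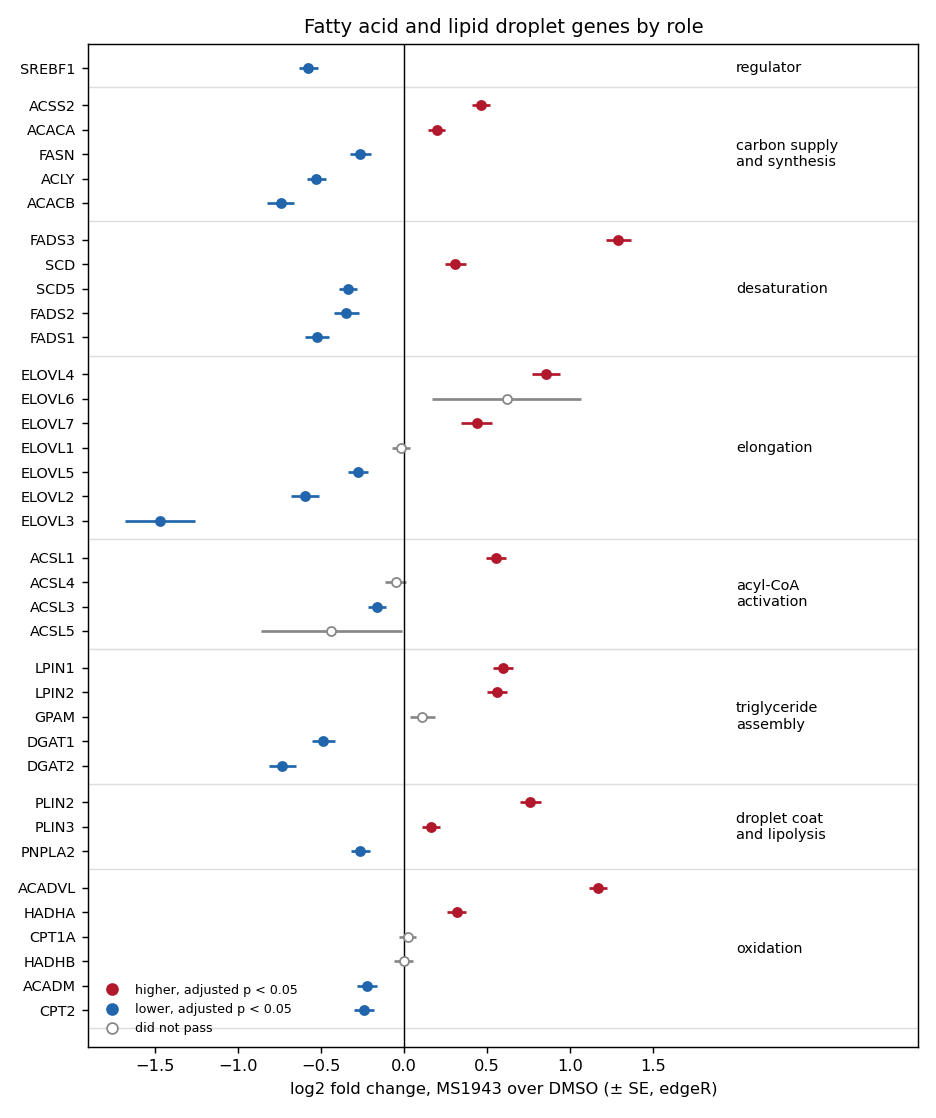
Log2 fold change of each of the 36 genes, MS1943 over DMSO, with its SE from edgeR (n = 2 libraries per group), ordered within roles. Filled red points were called higher and filled blue points lower at an adjusted p under 0.05, and open grey points did not pass. Every role with more than 1 gene holds at least 1 gene called higher and 1 called lower.

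SREBF1 (ENSG00000072310, hg38 chromosome 17, 17810399 to 17837002, minus strand) gave 273 and 284 CPM with DMSO and 189 and 185 CPM with MS1943. Both treated libraries lay below both controls, with a log2 fold change of -0.57 ± 0.06 (SE; edgeR adjusted p = 3.3e-08), a fall. Its exons overlap those of RAI1 on the other strand over 556 bases, 6.9% of its exon length, and the library kit does not mark strand. The annotation gives the gene alternative starts, and the transcript estimates were lower at both of those read here. Transcripts that begin in the upstream exon (17836727 to 17837002 in SREBF1-201) summed to 81.7 and 87.8 TPM with DMSO and 49.4 and 50.1 TPM with MS1943. The estimates of the 3 transcripts that begin in the downstream exon with lower coordinate 17823518 summed to 46.2 and 45.3 TPM and to 20.5 and 17.1 TPM. The 18 transcripts with other starts summed to more than the downstream group. They held 61.9 and 61.6 TPM with DMSO and 53.5 and 43.7 TPM with MS1943. Within the upstream group, the protein-coding transcript ENST00000355815 went from 21.5 and 21.8 TPM to 3.49 and 1.015 TPM, a larger relative difference than that of SREBF1-201 (60.2 and 66.1 TPM, then 45.9 and 49.1 TPM). Salmon divides reads between overlapping transcripts and the files hold no error for that step, so these transcript values are given without a test.

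**Figure D2:**
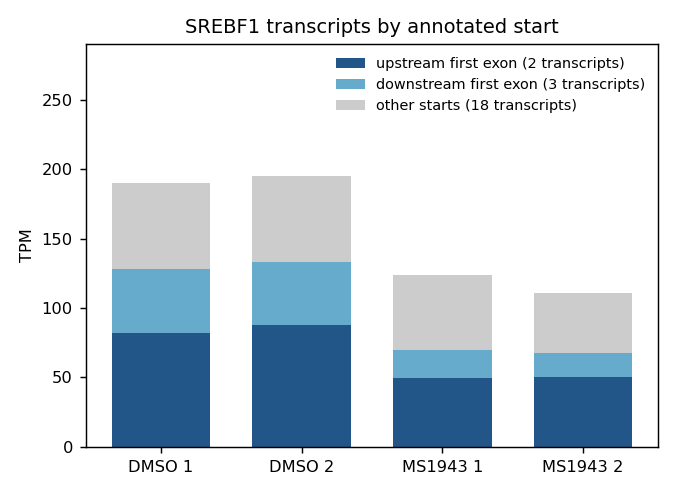
Stacked TPM of SREBF1 transcripts in each library, grouped by annotated start. All 3 groups were lower in both MS1943 libraries than in both DMSO libraries, with the gene total at 190 and 195 TPM with DMSO and 123 and 111 TPM with MS1943.

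Of 9 genes that run and control SREBP processing, 1 rose and 5 fell. INSIG2, which holds the SREBP escort SCAP in the endoplasmic reticulum, rose from 46.6 and 44.0 CPM to 76.5 and 76.7 CPM. INSIG1, the sterol-responsive counterpart, fell by 0.28 ± 0.06 on the log2 scale, and ERLIN2, which takes part in degrading the INSIG target HMG-CoA reductase, fell by 0.65 ± 0.06. RNF139, a ubiquitin ligase of the same membrane, fell by 0.41 ± 0.07. The gene of the partner factor, SREBF2, did not pass (0.12, edgeR adjusted p = 0.0919). The cholesterol genes that SREBF2 chiefly drives also went both ways, with 7 of 23 higher and 10 lower and a median log2 fold change of -0.11. With total-read scaling that split was 4 higher and 14 lower. The sterol reductase gene TM7SF2 (-1.44 ± 0.07) and the mevalonate kinase gene MVK (-0.66 ± 0.06) were lower. STARD4, a sterol carrier, was higher (0.91 ± 0.06).

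The enzymes of carbon supply and chain assembly gave 2 rises and 3 falls. ACLY (ENSG00000131473, chromosome 17, 41866908 to 41930542) gave 468 and 443 CPM with DMSO and 319 and 314 CPM with MS1943. The groups did not overlap, and ACLY fell by 0.53 ± 0.06 in log2 terms (edgeR adjusted p = 1.9e-07). ACSS2, the alternative source of cytosolic acetyl-CoA, rose from 156 and 149 CPM to 208 and 211 CPM (0.46 ± 0.05). Summed over all transcripts, ACLY was the more abundant of these enzymes with DMSO (171 and 172 against 93.9 and 95.04 TPM). It was the less abundant with MS1943 (110 and 107 against 130.5 and 141 TPM). Counting protein-coding transcripts alone, ACLY stayed the more abundant with MS1943 (106 and 104 against 89.2 and 90.1 TPM). The estimated split of ACSS2 was unstable, with 50.2 and 73.8 TPM of protein-coding transcripts in the DMSO libraries. FASN (ENSG00000169710, chromosome 17, 82078333 to 82098332), the most abundant member per length in both DMSO libraries, gave 2580 and 2589 CPM there and 2151 and 2161 CPM with MS1943. FASN thus fell by 0.26 ± 0.06 in log2 terms (edgeR adjusted p = 0.0014), and by more (-0.34) when the test allowed for transcript length. ACACA, the cytosolic carboxylase, rose slightly (0.20 ± 0.05), a call that ended with total-read scaling (0.08, adjusted p = 0.115). ACACB, whose product acts at the mitochondrial surface on CPT1, gave 16.2 and 16.6 CPM with DMSO and 10.3 and 9.29 CPM with MS1943. It fell by 0.74 ± 0.08 (edgeR adjusted p = 2.4e-07), and the TPM ratio of ACACA to ACACB went from 3.38 and 3.63 to 6.17 and 6.38.

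Among 10 genes that feed this step with acetyl-CoA and NADPH, 3 rose and 5 fell. ME1, the malic enzyme that yields NADPH in the cytosol, rose from 34.6 and 28.6 CPM to 132.9 and 134 CPM (2.08 ± 0.07), a larger change than that of any of the 36 members. IDH1, another cytosolic NADPH source, rose by 1.05 ± 0.06. SLC25A1, which exports citrate from mitochondria to ACLY, fell by 0.55 ± 0.06. Of 10 genes of the separate mitochondrial fatty acid synthesis route, which serves lipoate formation, 2 rose and 4 fell. LIPT2 (-0.98 ± 0.23), CBR4 (-0.67 ± 0.07) and LIPT1 (-0.60 ± 0.14) were lower, and the lipoate synthase gene LIAS was higher (0.44 ± 0.10).

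The 5 desaturase genes gave 2 rises and 3 falls. SCD (ENSG00000099194, chromosome 10, 100347124 to 100364834), the stearoyl-CoA desaturase that makes oleate, gave 1469 and 1396 CPM with DMSO and 1755 and 1799.6 CPM with MS1943. Both treated libraries lay above both controls, and SCD rose by 0.31 ± 0.06 in log2 terms (edgeR adjusted p = 2.9e-04). Its paralog SCD5 fell by 0.33 ± 0.06, and the TPM ratio of SCD to SCD5 went from 12.1 and 11.9 to 18.7 in both MS1943 libraries. The TPM ratio of SCD to FASN went from 0.854 and 0.845 to 1.30 and 1.32, so that SCD passed FASN in abundance. FADS1 and FADS2 encode the delta-5 and delta-6 desaturases of polyunsaturated fatty acid synthesis. On chromosome 11 the annotated span of FADS1 lies within that of FADS2, on the opposite strand. FADS1 gave 23.7 and 22.7 CPM with DMSO and 16.8 and 15.4 CPM with MS1943 (-0.52 ± 0.07), and FADS2 fell by 0.35 ± 0.08. Their exons overlap over 490 bases on opposite strands, so part of their reads cannot be told apart. FADS3, the third gene of the cluster (61873519 to 61892051), went the other way, from 12.2 and 13.7 CPM to 33.2 and 30.1 CPM. It rose by 1.29 ± 0.08 (edgeR adjusted p = 2.9e-11), the largest rise among the 36 members.

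The 250 bases upstream of the RefSeq starts of ACLY, which fell, and SCD and PLIN2, which rose, are shown as examples of members that moved in opposite directions. The window between the divergent genes HADHA and HADHB is added, since their starts lie 307 bases apart and only HADHA was called. Sequences are from RefSeq on GRCh38.p14 and read 5′ to 3′ on the strand of the gene. Capitals mark a CCAAT box (CCAAT, or ATTGG on the other strand) or an E-box (CACGTG).
SCD, chr10:100346983-100347232, plus strand: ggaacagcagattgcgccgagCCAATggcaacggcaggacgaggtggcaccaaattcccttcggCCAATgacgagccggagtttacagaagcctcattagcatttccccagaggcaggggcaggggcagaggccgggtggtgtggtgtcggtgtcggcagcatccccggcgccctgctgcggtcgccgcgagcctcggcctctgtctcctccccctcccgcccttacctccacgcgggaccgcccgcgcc
ACLY, chr17:41918952-41919201, minus strand: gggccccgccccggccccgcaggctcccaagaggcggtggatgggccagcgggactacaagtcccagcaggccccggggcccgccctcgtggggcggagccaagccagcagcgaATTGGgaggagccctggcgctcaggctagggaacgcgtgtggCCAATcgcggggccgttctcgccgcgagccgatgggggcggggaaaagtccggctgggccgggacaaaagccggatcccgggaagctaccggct
PLIN2, chr9:19127493-19127742, minus strand: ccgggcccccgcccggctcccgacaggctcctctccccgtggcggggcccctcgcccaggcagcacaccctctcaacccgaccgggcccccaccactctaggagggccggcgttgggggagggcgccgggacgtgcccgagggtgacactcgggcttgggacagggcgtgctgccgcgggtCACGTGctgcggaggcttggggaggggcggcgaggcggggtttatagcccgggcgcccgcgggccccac
HADHA, chr2:26244633-26244882, minus strand: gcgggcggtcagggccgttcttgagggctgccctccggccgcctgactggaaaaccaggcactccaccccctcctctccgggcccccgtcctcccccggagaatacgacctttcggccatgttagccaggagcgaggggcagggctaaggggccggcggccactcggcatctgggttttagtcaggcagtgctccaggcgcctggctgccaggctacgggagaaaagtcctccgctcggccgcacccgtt
ACLY and SCD each held 2 CCAAT boxes, 136 and 94 bases before the start in ACLY and 229 and 186 bases before it in SCD. ACLY has another RefSeq start, not shown, and the same boxes lie 65 and 23 bases before that one. PLIN2 held an E-box 69 bases before the start. HADHA held neither motif.

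RefSeq promoter entries matched 33 of the 36 members (48 windows, since some genes have several starts; the others are FASN, DGAT1 and DGAT2). Each motif was searched on both strands of the 250 upstream bases, and its share among all 35116 windows of that length is given beside it. The CCAAT box stood in 16 of 48 member windows, against 32.0% of all windows. The GC box GGGCGG stood in 35 of the 48 member windows, a larger share than the 42.6% of all windows. All windows were counted whatever the expression of their genes, and the members are more abundant than most tested genes. The E-box CACGTG stood in 4 member windows, against 6.3%. The sterol element core TCACNCCAC stood in 2 member windows, of ACSL1 and PNPLA2, against 0.9%. The ATF4 composite motif TGATGNAA stood in 0 member windows, against 3.1%, and the antioxidant element core TGACNNNGC in 4, against 10.9%. These matches describe the letters of the windows and show no binding.

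The 7 elongase genes, each with its own range of chain lengths, gave 2 rises, 3 falls and 2 that did not pass. ELOVL4, which makes very long chains, gave 9.67 and 8.52 CPM with DMSO and 16.7 and 16.1 CPM with MS1943, a rise of 0.86 ± 0.09 (edgeR adjusted p = 5.8e-08). ELOVL7 rose by 0.44 ± 0.09. ELOVL2, an elongase of polyunsaturated chains, gave 14.0 and 13.4 CPM with DMSO and 9.19 and 8.90 CPM with MS1943 (-0.59 ± 0.08). ELOVL5, which acts on the products of FADS2, fell by 0.28 ± 0.06. ELOVL3 was low, at 2.28 and 2.00 CPM with DMSO and 0.707 and 0.852 CPM with MS1943, and fell by 1.47 ± 0.21, the largest fall among the members. ELOVL1, the most abundant elongase per length, stood at 150.0 and 147 CPM and at 149 and 145 CPM. Its log2 fold change of -0.02 has a 95% interval from -0.13 to 0.09. ELOVL6, which extends palmitate in many tissues, had only 14.0 to 20.5 reads in any library, and its change could not be determined at this depth (95% interval -0.32 to 1.56). Of 9 partner genes of the elongation and desaturation cycles, 3 rose and 2 fell. The dehydratase genes HACD1 (0.81 ± 0.12) and HACD2 (0.25 ± 0.06) were among those higher, and the reductase gene TECR (-0.45 ± 0.06) and the cytochrome gene CYB5A (-0.42 ± 0.06) were lower, and with total-read scaling 2 rose and 3 fell.

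**Figure D3:**
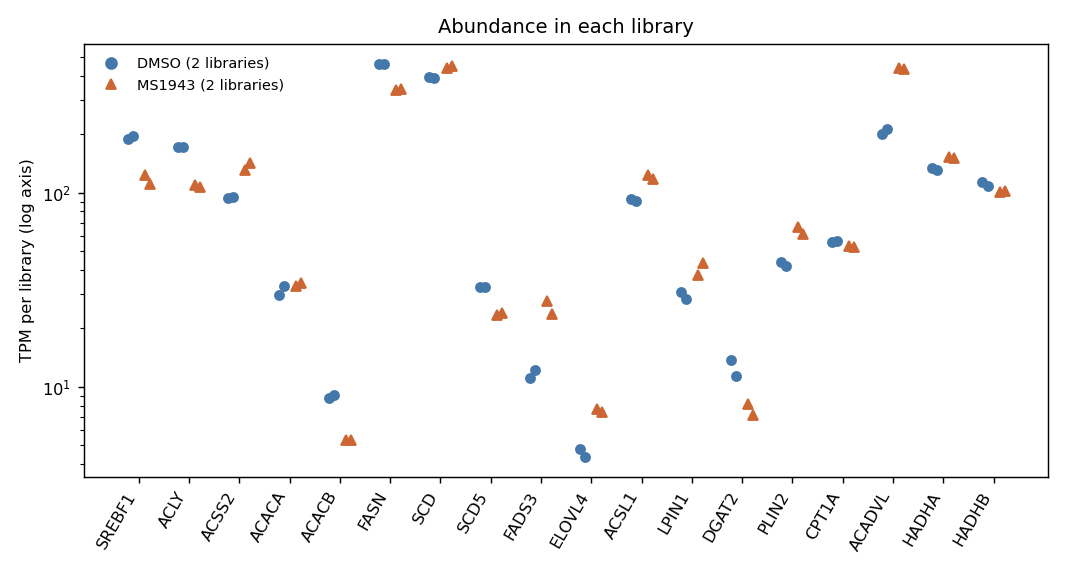
TPM of 18 genes in each library on a log axis, with DMSO as circles and MS1943 as triangles. ACADVL went from 200.3 and 213 TPM to 440 and 435 TPM, SCD passed FASN, and ACACA and CPT1A stood close to their DMSO values.

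Among the 9 genes of activation and triglyceride assembly, 3 rose, 3 fell and 3 did not pass. ACSL1, an acyl-CoA synthetase, gave 213 and 198 CPM with DMSO and 309.9 and 294 CPM with MS1943, a rise of 0.55 ± 0.06 (edgeR adjusted p = 1.2e-07). ACSL3, which sits on nascent droplets, was called lower (-0.16 ± 0.05), but the call ended with the transcript-length offset (adjusted p = 0.439). It also ended when MS1943 replicate 1 was left out (adjusted p = 0.0518). ACSL4, which prefers arachidonate, did not pass (-0.05, 95% interval -0.18 to 0.08), and was called lower with total-read scaling (-0.16) and with the length offset (-0.21). ACSL5 had 14.0 to 27.0 reads per library and could not be resolved. LPIN1, a phosphatidate phosphatase and nuclear coregulator, gave 81.5 and 74.0 CPM with DMSO and 114 and 122 CPM with MS1943 (0.60 ± 0.06, edgeR adjusted p = 5.9e-08). LPIN2 gave 31.5 and 31.4 CPM with DMSO and 47.4 and 45.2 CPM with MS1943 (0.56 ± 0.06). Both phosphatase genes thus rose by similar amounts, with no overlap between the groups. The acyltransferases of the last step fell. DGAT2 gave 18.0 and 16.4 CPM with DMSO and 10.4 and 10.3 CPM with MS1943 (-0.73 ± 0.08, edgeR adjusted p = 2.2e-07), and DGAT1 fell by 0.48 ± 0.07. Transcripts annotated as retained introns held most of the DGAT1 estimate (20.1 and 22.9 TPM with DMSO, against 4.56 and 4.19 TPM for its protein-coding transcripts). GPAM, the mitochondrial glycerol-3-phosphate acyltransferase, did not pass (0.11, 95% interval -0.05 to 0.27).

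Of 16 further glycerolipid genes tested, 10 rose and 5 fell, with a median log2 fold change of 0.30. With total-read scaling 8 rose and 5 fell, with a median of 0.19. GPAT3, the reticulum enzyme that opens triglyceride synthesis, rose from 4.34 and 3.91 CPM to 15.7 and 14.8 CPM (1.89 ± 0.10). GPAT2 (1.37 ± 0.37), AGPAT4 (1.36 ± 0.27) and MOGAT2 (-1.63 ± 0.36) also passed, all at levels below 1.2 CPM in every library. Among 14 tested genes of other acyl-CoA synthetases and carriers, 3 rose and 4 fell, or 2 and 6 with total-read scaling. ACBD3, a Golgi protein with an acyl-CoA binding domain, rose by 0.88 ± 0.06. DBI, the acyl-CoA binding protein, fell by 0.51 ± 0.05, as did the SLC27 family genes SLC27A3 (-0.67 ± 0.07) and SLC27A5 (-0.62 ± 0.08).

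The droplet genes gave 2 rises and 1 fall. PLIN2 (ENSG00000147872, chromosome 9, 19108375 to 19149290), the perilipin that coats droplets in most cells and is degraded when no lipid is bound, gave 49.95 and 47.4 CPM with DMSO and 87.1 and 77.7 CPM with MS1943. It rose by 0.76 ± 0.06 (edgeR adjusted p = 3.0e-09), and both treated libraries lay above both controls. PLIN3, a coat protein also found free in the cytosol, was called higher by a smaller amount (0.16 ± 0.05). That call ended under 5 of the alternatives, total-read scaling, no filter on low counts, the length offset, and leaving out DMSO replicate 2 or MS1943 replicate 1 (adjusted p from 0.0524 to 0.320). PNPLA2, which encodes the triglyceride lipase ATGL, fell by 0.26 ± 0.06. Further along lipolysis, MGLL, the monoacylglycerol lipase, rose from 17.6 and 17.3 CPM to 78.5 and 78.9 CPM (2.17 ± 0.06), and BSCL2, which encodes the droplet assembly protein seipin, rose by 0.90 ± 0.06. The droplet protein gene AUP1 rose by 0.70 ± 0.06, and HSD17B11, below 1 CPM in every library, fell by 0.73 ± 0.30. Of 15 tested droplet and lipolysis genes besides the members, 4 rose and 2 fell, or 3 and 5 with total-read scaling.

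The 6 oxidation genes gave 2 rises and 2 falls. ACADVL (ENSG00000072778, chromosome 17, 7217125 to 7225273), the very long chain acyl-CoA dehydrogenase that starts each cycle on long chains, gave 196 and 195 CPM with DMSO and 442 and 437 CPM with MS1943. It rose by 1.17 ± 0.06 (edgeR adjusted p = 1.3e-12), with a spread within each pair far smaller than the difference. Its protein-coding transcripts summed to 118 and 117 TPM and to 235 and 219 TPM, and the transcripts annotated as retained introns to 39.8 and 50.02 TPM and to 117 and 106 TPM, so both kinds were higher. Restricted to protein-coding transcripts the rise was 1.10. How Salmon split the gene was unstable: ACADVL-203 was put at 43.6 TPM in one MS1943 library and 109 TPM in the other, while the gene total differed little. HADHA, the alpha subunit of the mitochondrial trifunctional protein, rose from 266 and 250.4 CPM to 326 and 317 CPM (0.32 ± 0.06, edgeR adjusted p = 8.7e-05). HADHB, its beta subunit from the adjoining divergent gene, stood at 145 and 133 CPM and at 138 and 141 CPM, with a 95% interval of -0.12 to 0.12 on the log2 scale. The TPM ratio of HADHA to HADHB was 1.18 and 1.21 with DMSO and 1.52 and 1.48 with MS1943. No test of that ratio was made, and an exact permutation of 2 against 2 libraries cannot give a p below 0.333.

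CPT1A (ENSG00000110090, chromosome 11, 68754620 to 68844410), which forms acylcarnitines at the outer mitochondrial membrane, gave 148 and 144 CPM with DMSO and 149 and 148 CPM with MS1943. The groups overlapped only in part, and the 95% interval of its log2 fold change ran from -0.09 to 0.13 (edgeR adjusted p = 0.744). CPT2, which releases the acyl-CoA inside, fell by 0.24 ± 0.06, and ACADM, the medium chain dehydrogenase, fell by 0.22 ± 0.06, a call that ended with the length offset (adjusted p = 0.0759). ACADVL and ACADM, which act on long and on medium chains, thus moved apart, and their TPM ratio went from 2.36 and 2.54 to 6.18 and 6.11.

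The genes of the wider list drawn up for mitochondrial oxidation did not follow ACADVL. Where their products act was not measured. Of 23 tested, 5 rose and 12 fell, with a median log2 fold change of -0.19, against -0.01 for all tested genes. With total-read scaling 3 rose and 14 fell. Of all tested genes 30.0% were called higher and 29.4% lower, and 74.1% of those whose mean log2 CPM reached 2 were called. HADH, the short chain hydroxyacyl-CoA dehydrogenase, fell from 75.0 and 70.4 CPM to 34.4 and 36.3 CPM (-1.04 ± 0.06). CPT1C, a brain-type member of the carnitine palmitoyltransferase family, fell by 1.21 ± 0.11. The thioesterase gene ACOT1 fell by 0.78 ± 0.06, although ACOT1 and ACOT2 are near-identical and their reads are uncertain. ACAD11, a dehydrogenase of long chains, rose by 1.15 ± 0.08. Of 14 tested peroxisomal oxidation genes, 2 rose and 5 fell, or 1 and 9 with total-read scaling, with CROT (-0.93 ± 0.12), AMACR (-0.87 ± 0.08) and EHHADH (-0.75 ± 0.12) lower. Among 22 regulators of lipid genes, 11 rose and 4 fell, or 7 and 9 with total-read scaling. THRSP, a nuclear protein tied to lipogenesis, had the largest called change of that list and fell (-2.13 ± 0.62, edgeR adjusted p = 0.0061). Its level was 0.197 and 0.2799 CPM with DMSO and 0.0602 and 0.0437 CPM with MS1943, close to the 0.0431 and 0.0634 CPM that 3 reads give in those treated libraries. PPARG, a nuclear receptor that promotes lipid storage, rose from 7.62 and 7.70 CPM to 17.1 and 16.2 CPM (1.12 ± 0.08). PPARGC1A, a coactivator of mitochondrial genes, rose from 1.22 and 1.20 CPM to 2.75 and 2.56 CPM. NR1H2, which encodes the oxysterol receptor LXR beta, rose by 0.60 ± 0.06.

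**Figure D4:**
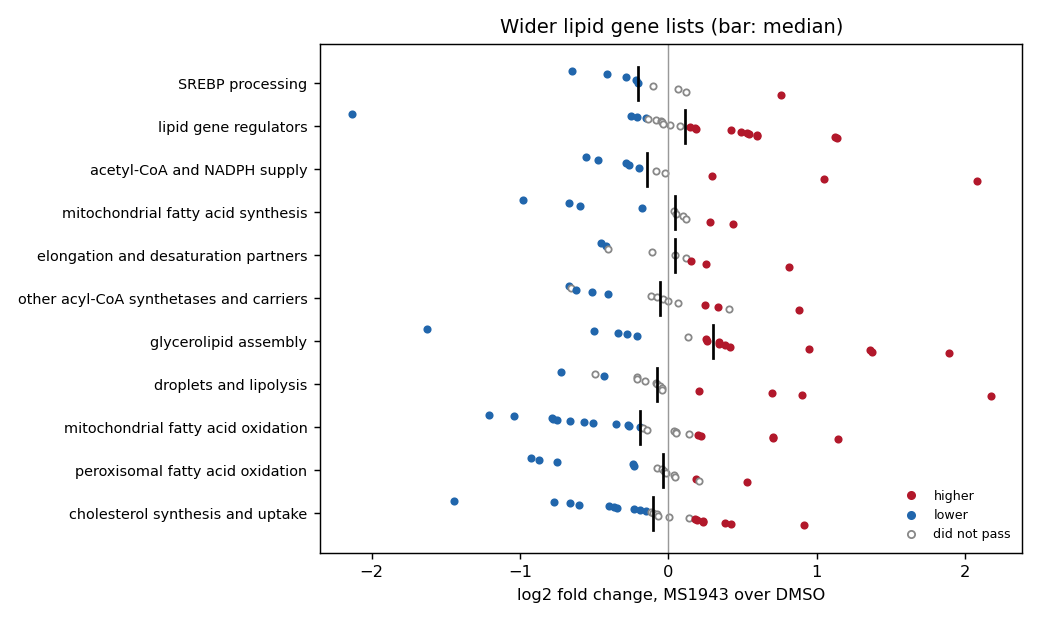
Log2 fold change, MS1943 over DMSO, of each tested gene of 11 further lipid gene lists, with a black bar at each list's median. Red points were called higher, blue points lower, and open points did not pass. Mitochondrial oxidation has its median at -0.19 and glycerolipid assembly at 0.30, and each list holds genes called in both directions.

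The synthesis and oxidation members were then set side by side. Of the 17 synthesis, desaturation and elongation members, 6 rose, 9 fell and 2 did not pass, with a median log2 fold change of -0.26. Of the 6 oxidation members, 2 rose, 2 fell and 2 did not pass, with a median of 0.01. The median over all tested genes was -0.01, near that of the oxidation members and above that of the synthesis members. No test of the lists was made. Of all tested genes 59.3% were called, and of those whose mean log2 CPM reached 2, 74.1% were. Summed abundance differed in opposite directions, synthesis going from 1600 and 1589 TPM to 1437 and 1454 TPM and oxidation from 610.1 and 613 TPM to 834 and 829 TPM. Mean TPM of the 11688 genes whose mean log2 CPM reached 2 shifted by a median of -0.09 on the log2 scale, and a ratio within a library does not carry that shift. The ratio of synthesis to oxidation was 2.62 and 2.59 with DMSO and 1.72 and 1.75 with MS1943. Most of that difference rested on ACADVL: without it the ratio was 3.90 and 3.97 with DMSO and 3.65 and 3.69 with MS1943. FASN and SCD supplied 53.4% to 54.4% of the summed synthesis TPM in every library. Mean TPM of the oxidation members other than ACADVL and HADHA was in each case lower with MS1943. For CPT1A and HADHB the test on TMM-scaled counts gave no call, with log2 fold changes of 0.02 and -0.001.

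**Figure D5:**
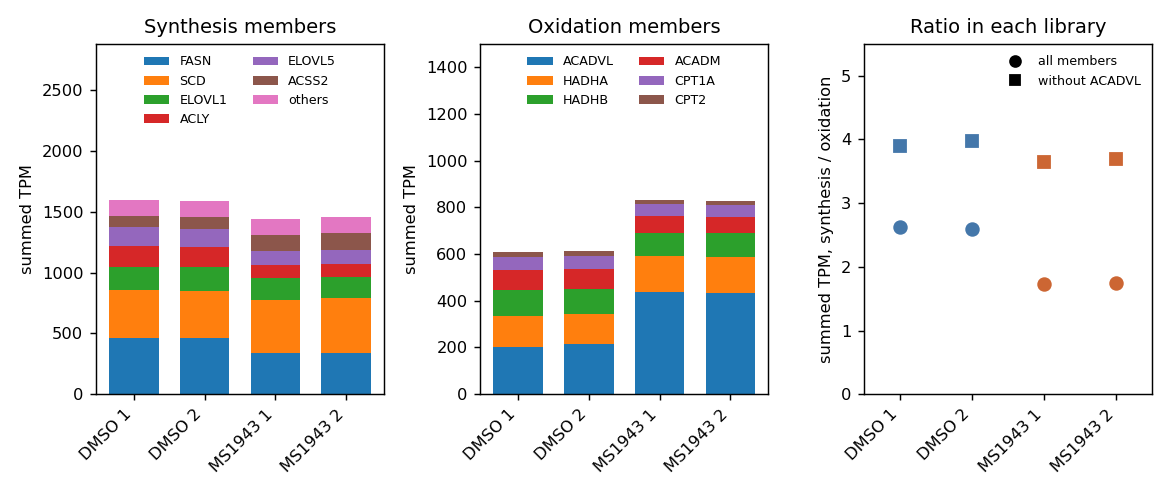
Summed TPM of the synthesis members (left) and oxidation members (middle) in each library, stacked by gene, and their ratio in each library (right; circles for all members, squares without ACADVL). The ratio lay at 2.59 to 2.62 with DMSO and 1.72 to 1.75 with MS1943, and at 3.65 to 3.97 in all 4 libraries when ACADVL was left out.

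Alternative starts were also read for ACACA and LPIN1. Transcripts of ACACA that begin in the first exon of ACACA-231 held 57.1% and 54.5% of its TPM with DMSO and 57.3% and 55.4% with MS1943. For LPIN1, those with the first exon of LPIN1-201 held 62.7% and 65.1% with DMSO and 67.5% and 65.3% with MS1943. These shares differed between groups by no more than a few points, near the spread within a pair. The leading transcript was the same in both groups for 34 of the 36 members, and the exceptions were ELOVL6 and ACSL5, whose estimates rest on few reads.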

How the data were processed

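RNA-seq of polyadenylated RNA from 4 libraries was used. Per the submitters' processing notes, the authors used Salmon 0.9.1, R 3.4.3 and DESeq2 with hg38; for the annotation release and the options used, not given in the sources used here. Tables as deposited hold estimated counts and TPM per transcript, as the file headers name them. Transcripts were matched to GENCODE 29 (193348 of 197653; the rest held 0.482% to 0.496% of reads), and expected counts were summed per gene and rounded. A low-count filter (filterByExpr), TMM scaling and edgeR 4.0.16's quasi-likelihood test followed in R 4.3.3, fitted to 19358 genes, with Benjamini-Hochberg adjustment and a threshold of 0.05. SEs are the fold change divided by the square root of F. The test was also run on simulated counts in which a small share of genes was changed. That setting does not cover changes as widespread as those called here. At the total reads of these libraries, 3 reads correspond to 0.0422 to 0.0634 CPM, which covers counting error only.

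The members and lists were chosen with earlier results of these data known. Named members were those past the threshold with an absolute log2 fold change of at least 0.5, plus FASN, SCD and CPT1A; in each wider list, the 4 largest called changes. Some genes that this rule names are not reported here. Other genes were added where a result turned on them. Alternatives were other scalings (RLE, total reads), DESeq2 1.42.0, other filters, a transcript-length offset, protein-coding transcripts only and leaving out each library.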

Additional observations from a re-analysis of the deposited data

How the results depend on the processing

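Of 394 values of single members under the alternatives, 382 kept direction and side of the threshold, 9 lost the call, 3 gained it and 0 reversed. On the same side throughout were 30 of the 36 members. The others were ACACA, ELOVL1, ACSL3, ACSL4, PLIN3 and ACADM. ELOVL1 was called lower with total-read scaling (-0.13, edgeR adjusted p = 0.0192). With the transcript-length offset 1 oxidation member was lower in place of 2. The median log2 fold change of the synthesis members was -0.37 with total-read scaling and -0.30 with no filter on low counts, and ran from -0.27 to -0.21 when 1 library was left out. That of the oxidation members was -0.10 with total-read scaling and ran from -0.037 to 0.050 when 1 library was left out. The cause of these shifts was not tested. Members called higher numbered 11 to 13 and lower 15 to 18. The stricter filter left out ELOVL6 and ACSL5, whose few reads limit their precision. No paired analysis was made, because the labels state no pairing of libraries. The replicate numbers used here follow accession order and only name the libraries.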
